A study of Mus musculus with 6 samples.

Results

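The BMP, TGF beta and activin pathway was examined in adult neural stem cells through 44 genes: 12 ligands, 12 receptors and coreceptors, 10 Smads and Smurfs, and 10 antagonists and matrix binders. The genes were chosen by name out of 18193 genes that the arrays measured through a probe set of 1 gene. Earlier results of these data were known when the genes were chosen. All 44 were represented, by 96 probe sets, and the brightest probe set of each gene was used. Activated neural stem cells were sorted from the ventricular-subventricular zone of adult mouse brains as positive for a GFP reporter of the GFAP promoter, for CD133 and for the EGF receptor, and negative for CD24. Quiescent neural stem cells came from the same tissue and were positive for the GFAP reporter and CD133 and negative for CD24, with no EGF receptor criterion named in the labels. Each population was measured on 3 arrays, described as biological replicates. All cells of both groups carry the GFAP::GFP reporter, whose promoter is also active in astrocytes, and the labels do not give the strain, the exact age or whether animals were pooled, so p-values measure the spread between these arrays.

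Ligands of this superfamily are secreted dimers that bring together type I and type II serine/threonine kinase receptors. BMPs signal mainly through Smad1, Smad5 and Smad9, TGF betas and activins through Smad2 and Smad3, and all of these share Smad4. Smad6 and Smad7 inhibit the pathway inside the cell, antagonists such as noggin bind BMPs outside it, and latent TGF beta binding proteins anchor TGF beta in the matrix. In the ventricular-subventricular zone, BMP signalling and its antagonist noggin are known as regulators of stem cell proliferation and neurogenesis, and TGF beta is known to slow progenitor division.

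Signals are given as log2 MAS5 values. Each difference is the activated mean minus the quiescent mean of those values, with the SE of the limma fit. A gene was tested when its mean over the 6 arrays reached 6.02, and called when its Benjamini-Hochberg adjusted p over all tested genes was under 0.05. Background is the level below which 95% of 27 bacterial control probe sets lay on an array. It was 4.52 to 4.67 on activated arrays and 5.45 to 6.10 on quiescent arrays. The bacterial hybridisation controls averaged 13.6 to 13.7 on activated arrays and 14.0 to 14.9 on quiescent arrays, and the 3′ minus 5′ Gapdh signal ran from 1.19 to 1.51 and from 1.54 to 2.59 in the same groups. The part of these technical differences in the results was not tested, beyond the rescaling on the hybridisation controls described below. The sort genes followed the labels for the EGF receptor, Egfr being 2.11 ± 0.24 higher in activated cells (adjusted p = 0.000153), which the sort itself selects for. Gfap and Prom1, the gene of CD133, were lower by -4.18 ± 0.58 (adjusted p = 0.000444) and -1.22 ± 0.32 (adjusted p = 0.0133), and Cd24a was higher by 4.13 ± 0.50 (adjusted p = 0.000223), although both sorts were negative for CD24 protein. Of 16 quiescent stem cell and astrocyte markers all were called lower in activated cells, and of 12 measured activated stem cell and progenitor markers all were called higher.

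Of the tested members, 4 of 7 ligand genes and 2 of 9 receptor genes were lower in activated cells, and 0 of 8 Smad and Smurf genes were called in either direction. Of the 30 members tested, 7 were called lower (Bmp6, Gdf10, Inhba, Tgfb2, Bmpr1b, Eng and Ltbp1), 1 was called higher (Nbl1) and 22 were not called. Over all 11575 genes tested, 34.9% were called, 17.6% lower and 17.3% higher. With this filter and the deposited scaling, the members' share of lower genes is close to that background, and their share of higher genes is below it. The remaining 14 members were too dim on average to be tested and are described by their values. Without a filter, 10 of 44 members were called lower, where 13.2% of all 18193 genes were. After rescaling on the hybridisation controls, 6 of 30 tested members and 943 of all 11575 tested genes were called lower. Over all 44 members, tested or not, the median difference was -0.76, against -0.39 for all 18193 genes, and 32 members had a negative difference. The activated arrays lay entirely below the quiescent arrays for 18 of the 44, where 25.4% of all genes did so, and entirely above for 4, where 16.8% did. By role, the median difference over tested and dim members together was -2.10 for ligands, -0.58 for receptors, 0.02 for Smads and Smurfs, and -0.74 for antagonists and matrix binders.

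**Figure D1:**
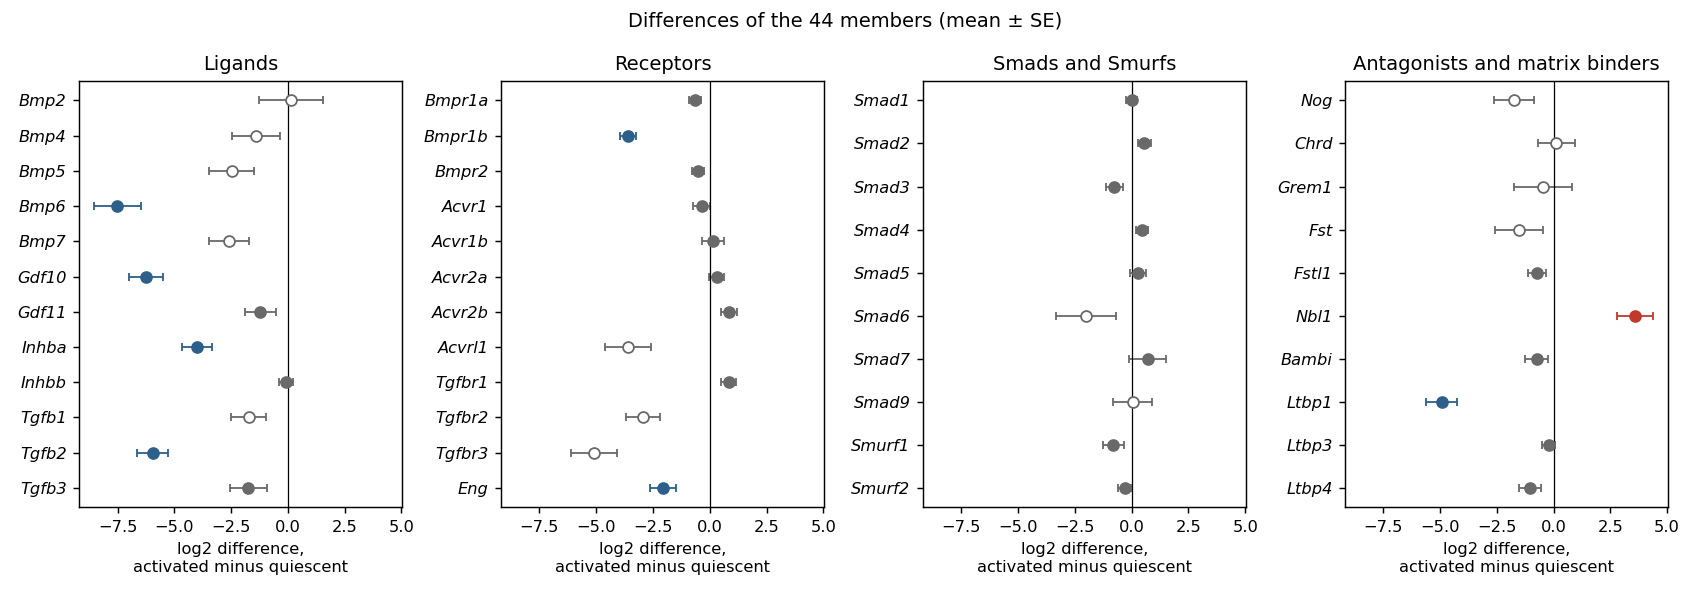
Difference in log2 MAS5 signal, activated minus quiescent, for the 44 members by role, with bars of ± SE; filled points were tested (blue called lower, red called higher, grey not called) and hollow points are dim members, whose SE comes from the fit without a filter. Bmp6, Gdf10 and Tgfb2 lie furthest below 0 and Nbl1 furthest above it, and the filled points of the Smads and Smurfs are all grey.

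The promoters of the 4 ligands called lower and of Nbl1, the member called higher, are shown because ligands are the role with the most called members and Nbl1 is the one member called in the other direction. The windows of the other called members, Bmpr1b, Eng and Ltbp1, are not printed. They are RefSeq windows of 250 bases before to 50 after the start of the gene on GRCm38.p6, a build used here for sequence only. Capitals mark CAGAC or its reverse complement GTCTG, a core of the Smad-binding element, GGCGCC, a GC-rich letter string that Smads of the BMP branch can bind, and TATAAA or TTTATA, the TATA box.
Bmp6 (chr13:38345466-38345765, plus strand): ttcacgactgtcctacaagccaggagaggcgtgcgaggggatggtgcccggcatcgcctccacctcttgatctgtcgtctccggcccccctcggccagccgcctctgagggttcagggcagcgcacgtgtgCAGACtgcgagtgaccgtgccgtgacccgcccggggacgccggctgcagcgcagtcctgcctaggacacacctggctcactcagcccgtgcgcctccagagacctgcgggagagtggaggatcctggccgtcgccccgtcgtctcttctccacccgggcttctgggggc
Gdf10 (chr14:33923337-33923636, plus strand): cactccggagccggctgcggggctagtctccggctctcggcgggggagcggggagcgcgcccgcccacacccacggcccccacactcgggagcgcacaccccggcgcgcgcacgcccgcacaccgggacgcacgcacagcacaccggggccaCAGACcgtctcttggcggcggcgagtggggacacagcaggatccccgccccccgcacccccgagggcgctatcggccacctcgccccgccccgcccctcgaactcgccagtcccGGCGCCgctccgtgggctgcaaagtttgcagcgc
Inhba (chr13:16011601-16011900, plus strand): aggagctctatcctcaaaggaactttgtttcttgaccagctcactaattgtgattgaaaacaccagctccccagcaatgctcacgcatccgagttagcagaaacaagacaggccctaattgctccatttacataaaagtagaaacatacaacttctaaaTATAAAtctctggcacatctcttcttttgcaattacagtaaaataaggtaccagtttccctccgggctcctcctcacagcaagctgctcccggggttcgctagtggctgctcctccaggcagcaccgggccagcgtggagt
Tgfb2 (chr1:186705940-186706239, minus strand): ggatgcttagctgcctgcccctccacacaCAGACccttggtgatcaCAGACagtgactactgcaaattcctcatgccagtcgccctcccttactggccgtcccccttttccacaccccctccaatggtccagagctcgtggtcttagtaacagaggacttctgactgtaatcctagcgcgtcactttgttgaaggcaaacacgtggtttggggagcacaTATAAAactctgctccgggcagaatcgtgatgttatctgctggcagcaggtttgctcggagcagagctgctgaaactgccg
Nbl1 (chr4:139092921-139093220, minus strand): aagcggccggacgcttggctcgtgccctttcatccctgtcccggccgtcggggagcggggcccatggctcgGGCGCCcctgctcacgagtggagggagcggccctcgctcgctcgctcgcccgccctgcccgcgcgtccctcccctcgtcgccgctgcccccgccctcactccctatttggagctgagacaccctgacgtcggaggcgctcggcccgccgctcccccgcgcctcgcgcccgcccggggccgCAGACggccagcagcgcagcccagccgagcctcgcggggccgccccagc
CAGAC was found once in the windows of Bmp6, Gdf10 and Nbl1, in 2 places in that of Tgfb2, and not in that of Inhba. GGCGCC was found in the windows of Gdf10 and Nbl1, and TATAAA in those of Inhba and Tgfb2. The marked matches do not overlap. On both strands, CAGAC occurs in 49.6% of all 32851 promoter windows of the same length, GGCGCC in 11.9% and TATAAA in 13.6%. Of the 41 windows of the 33 members that matched, 20 held CAGAC, 14 held GGCGCC and 4 held TATAAA. The median GC content was 67.0% over the member windows and 52.7% over all windows. These matches describe letters only.

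Among the BMP-type ligands, Bmp6 and Gdf10 differed most. Bmp6, a BMP ligand, had signals of 1.74, 5.35 and 0.80 on the activated arrays, against 10.37, 10.01 and 10.03 on the quiescent arrays. The quiescent values lie close together well above background, and activated arrays 1 and 3 were at background. Bmp6 was at least 38.4-fold lower in activated cells, with a fitted difference of -7.51 ± 1.03 (adjusted p = 0.000407). Here and below, a fold given as "at least" compares the brighter group's mean with the dimmer group's mean after raising arrays at background to that level. Such a fold holds only for the deposited scaling and the probe set used. After rescaling on the hybridisation controls the Bmp6 difference was -6.86. In these sorted populations, fewer cells that express a gene and less of its RNA per cell cannot be told apart.

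Gdf10, also called BMP3B, read 4.15, 5.28 and 2.295 on the activated arrays and 9.56, 10.37 and 10.49 on the quiescent arrays. Activated arrays 1 and 3 were at background, and the groups do not overlap. It was at least 39.3-fold lower in activated cells (difference -6.24 ± 0.75, adjusted p = 0.000211). Gdf11, a close relative of myostatin that signals through the activin branch, gave 5.69, 5.76 and 6.20 against 8.05, 7.21 and 6.02. Quiescent array 3 lies among the activated arrays for this gene, and it was not called (difference -1.21 ± 0.67, adjusted p = 0.18).

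The remaining BMP ligands were dim. Bmp7 read 5.75, 4.89 and 3.42 on the activated arrays and 8.68, 6.33 and 6.81 on the quiescent arrays, so its groups do not overlap. Its mean fell just short of the filter, and in the fit without a filter its difference of -2.59 ± 0.88 was not called (adjusted p = 0.0526). The further Bmp7 probe sets differed by -3.60 and -4.94, also without overlap. Bmp5 ranged from 1.81 to 4.84 on activated arrays and from 5.34 to 6.19 on quiescent arrays, with 2 arrays of each group at background. Bmp4 was at background on all 6 arrays, and Bmp2 on 2 arrays of each group, so neither ligand gives an ordered difference here.

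Of the activin and TGF beta ligands, Inhba and Tgfb2 were lower in activated cells. Inhba, which encodes the subunit of activin A, read 4.03, 5.88 and 5.35 on the activated arrays and 9.63, 9.32 and 8.30 on the quiescent arrays. Only activated array 1 was at background, and every quiescent array lies well above every activated array. The further Inhba probe set was at background on all 6 arrays. Inhba was at least 13.8-fold lower in activated cells (difference -4.00 ± 0.65, adjusted p = 0.00109). Inhbb, the subunit of activin B, gave 9.63, 10.34 and 9.81 against 9.92 to 10.18 on the quiescent arrays. The groups overlap, the difference was -0.09 ± 0.32 (adjusted p = 0.851), and its 95% interval ran from -0.79 to 0.62. A dimmer Inhbb probe set overlapped too, with a difference of 0.66 and 1 array at background.

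Tgfb2 read 6.55, 3.63 and 5.64 on the activated arrays and 11.78, 11.39 and 10.53 on the quiescent arrays. Activated array 2 was at background, and every quiescent array was far above every activated one. Tgfb2 was at least 50.7-fold lower in activated cells (difference -5.96 ± 0.70, adjusted p = 0.000186). Its 4 probe sets all placed the activated arrays below the quiescent arrays, with differences from -5.96 to -2.45. The size of the Tgfb2 difference therefore varies with the probe set.

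Tgfb1 and Tgfb3 were dimmer. Tgfb1 read 5.07, 4.30 and 4.47 against 7.08, 6.01 and 5.92, and it was too dim to be tested. Its groups do not overlap, while its further probe set was at background on all 6 arrays. Tgfb3 read 6.18, 5.36 and 4.23 on the activated arrays and 7.69, 5.52 and 7.78 on the quiescent arrays. Quiescent array 2 lies within the activated range, and Tgfb3 was not called (difference -1.74 ± 0.82, adjusted p = 0.123). Without that array its difference was -2.48 and it was called (adjusted p = 0.0419), and after quantile normalization it was -1.05 (adjusted p = 0.356).

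**Figure D2:**
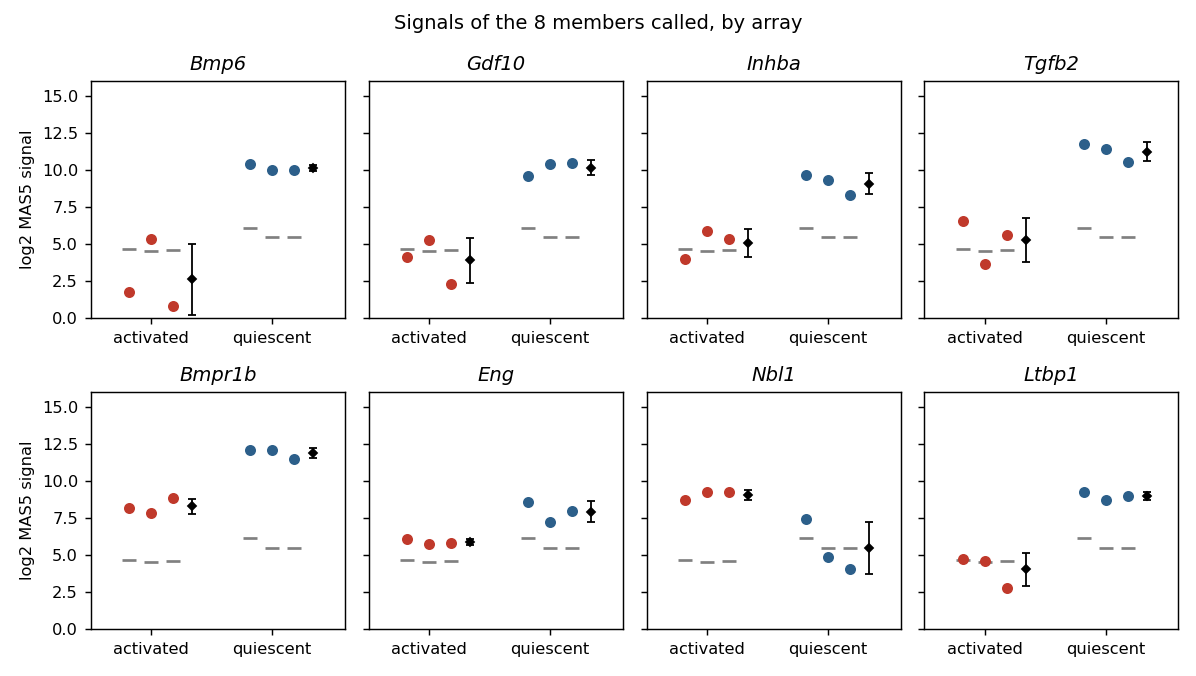
Log2 MAS5 signal of the 8 called members on each array (activated red, quiescent blue, arrays 1 to 3 from left to right within a group); grey dashes mark the background of each array and diamonds the group mean ± SD (n = 3). The quiescent arrays lie above the activated arrays in every panel but Nbl1, and several activated arrays lie at or below background for Bmp6 and Gdf10.

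Of the BMP type I receptors, Bmpr1b was lower in activated cells and Bmpr1a was not called. Bmpr1b read 8.18, 7.79 and 8.83 on the activated arrays and 12.08, 12.06 and 11.46 on the quiescent arrays, all above background. The receptor gene was 12.1-fold lower in activated cells (difference -3.60 ± 0.36, 95% interval -4.39 to -2.80, adjusted p = 8.48e-05), the smallest adjusted p among the members. All 3 of its probe sets were lower without overlap, by -2.49 to -3.60. Bmpr1a read 11.93, 11.97 and 11.96 against 12.95, 12.52 and 12.33. The activated arrays lie just below the quiescent arrays, and Bmpr1a was not called (difference -0.65 ± 0.25, 95% interval -1.19 to -0.10, adjusted p = 0.0658). It was called without quiescent array 3 (adjusted p = 0.0184) and after quantile normalization (adjusted p = 0.022). After rescaling on the hybridisation controls its difference was 0 to 2 decimals (adjusted p = 0.998). Of the 6 Bmpr1a probe sets, 3 placed the activated arrays below the quiescent arrays and the others overlapped, with differences from -0.80 to -0.01.

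Acvr1, Bmpr2, Acvr1b and Acvr2a stayed above background on every array in both groups. Acvr1, the type I receptor also called ALK2, differed by -0.35 ± 0.37 (adjusted p = 0.477), and its further probe sets by -0.76 and 1.36. Bmpr2, the BMP type II receptor, differed by -0.52 ± 0.26 (adjusted p = 0.149), with further probe sets at 0.71 and 1.09. For Acvr1 and Bmpr2 the direction depends on the probe set. Acvr1b, the activin type I receptor, had 9.28 to 9.47 on activated arrays and 8.38 to 10.42 on quiescent arrays. Its quiescent arrays enclose the activated arrays, and the difference was 0.14 ± 0.50 (adjusted p = 0.844). The further Acvr1b probe set, also above background throughout, read 7.74, 6.86 and 6.95 on the activated arrays and 8.12, 8.63 and 7.99 on the quiescent arrays. It was lower without overlap, by -1.07, and averaging the Acvr1b probe sets gave -0.46 without a call (adjusted p = 0.313). Acvr2a, an activin type II receptor, likewise overlapped, at 11.07 to 11.15 against 10.28 to 11.40 (difference 0.30 ± 0.32, adjusted p = 0.488). Another Acvr2a probe set differed by -0.17 with overlap, so its direction also depends on the probe set.

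Acvr2b and Tgfbr1 lay higher in activated cells without being called. Acvr2b, an activin type II receptor, read 9.58, 10.28 and 10.19 on the activated arrays and 9.33, 9.30 and 8.84 on the quiescent arrays. The groups do not overlap, and the difference was 0.86 ± 0.35 (adjusted p = 0.0779). Its further probe sets differed by 0.53 with overlap and 1.28 without, and averaging its probe sets gave a call (adjusted p = 0.0476). Tgfbr1, the TGF beta type I receptor, read 10.59, 10.30 and 10.76 against 9.27, 10.14 and 9.74, also without overlap (difference 0.83 ± 0.33, adjusted p = 0.0732). Its other probe sets, at 0.54 and 0.55, overlapped between groups. Acvr2b and Tgfbr1 were called higher after rescaling on the hybridisation controls, which moved the median of all tested genes to 0.66, against 0.01 with the deposited scaling.

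Tgfbr2 and Tgfbr3 were detected on every quiescent array. Tgfbr3, the coreceptor betaglycan, read 1.87, 4.85 and 1.20 on the activated arrays and 8.34, 7.29 and 7.63 on the quiescent arrays. Only activated array 2 rose above background, and Tgfbr3 was at least 8.27-fold lower in activated cells. It was too dim to be tested, and in the fit without a filter it was called (difference -5.11 ± 1.01, adjusted p = 0.00368). Tgfbr2, the type II receptor for TGF beta, read 4.50, 3.46 and 5.26 against 7.13, 7.13 and 7.73. The same fit called it (difference -2.92 ± 0.75, adjusted p = 0.015), and it was at least 5.71-fold lower, with 2 activated arrays at background. The further Tgfbr2 probe sets overlapped between groups, at -1.40 and -1.93, with 5 and 4 of the 6 arrays at background. Without a filter 23.6% of 18193 genes were called, 13.2% lower and 10.4% higher.

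Eng and Acvrl1 encode endoglin and ALK1, receptors best known from endothelial cells. Eng read 6.06, 5.71 and 5.80 on the activated arrays and 8.57, 7.20 and 7.97 on the quiescent arrays. The groups do not overlap, and Eng was 4.16-fold lower in activated cells (difference -2.06 ± 0.57, adjusted p = 0.0178). The further Eng probe set overlapped between groups, with a difference of -1.20 and 2 arrays at background. Eng was no longer called when 1 of 3 arrays was left out: activated array 2, activated array 3 or quiescent array 1, with adjusted p of 0.0547, 0.0527 and 0.063 in that order. Quantile normalization and rescaling on the hybridisation controls also ended the call, with adjusted p of 0.0783 and 0.0931. Acvrl1 was at background on all 3 activated arrays, and quiescent arrays 2 and 3 read 6.93 and 6.67, with 4.46 at background on array 1. Its fit without a filter was called (difference -3.60 ± 1.00, adjusted p = 0.022). The further Acvrl1 probe set overlapped between groups, with a difference of -1.34 and 4 arrays at background.

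Markers of vascular cells were lower in activated cells too, with 4 of 7 tested endothelial markers called lower and 0 higher by limma, and 0 higher at an unadjusted p under 0.05. The summed linear signal of 15 measured endothelial markers was 2637 to 3805 on activated arrays and 16762 to 17818 on quiescent arrays. Most of both sums came from Slc2a1, a glucose transporter, and without it, a setting chosen after the values were seen, the other 14 summed to 486 to 636 on activated and 2139 to 5614 on quiescent arrays. Pecam1, Kdr, Tek, Tie1 and Emcn were at background on all 3 activated arrays, while 10 of the 15 markers were above background on all 3 quiescent arrays. The 14 pericyte and vascular smooth muscle markers summed to 656 to 851 on activated arrays and 5496 to 10038 on quiescent arrays. The part of these cells in the differences of Eng, Acvrl1, Tgfbr2, Tgfbr3 and the ligands was not tested. Mature oligodendrocyte markers, 2291 to 5815 on activated and 18368 to 74891 on quiescent arrays, moved likewise. Microglial markers summed to 235 to 303 and 611 to 1112 in the same order, and 0 of 2 tested were called. Aif1, Tmem119, C1qa, C1qc and Trem2 were at background on all 6 arrays. Cx3cr1, P2ry12 and Csf1r were above background on all 3 quiescent arrays. On the activated arrays these 3 lay lower without overlap, by -3.10, -2.80 and -1.28. The 14 ependymal markers summed to 12355 to 14685 on activated and 5803 to 7756 on quiescent arrays, but Cd24a alone gave 10048 to 11762 and 255 to 1424 of these sums. Without Cd24a the order turned round, with 2307 to 3187 on activated and 5168 to 7501 on quiescent arrays. With Cd24a counted, 5 of 7 tested ependymal markers were called lower and 2 higher, Cd24a and Dnah11. Dnah11 read 11.28, 11.18 and 10.55 on the activated arrays and 7.09, 7.36 and 6.26 on the quiescent arrays. Neuroblast and neuron markers summed to 15731 to 21848 on activated and 8125 to 10283 on quiescent arrays, with 4 of 10 tested called higher.

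**Figure D3:**
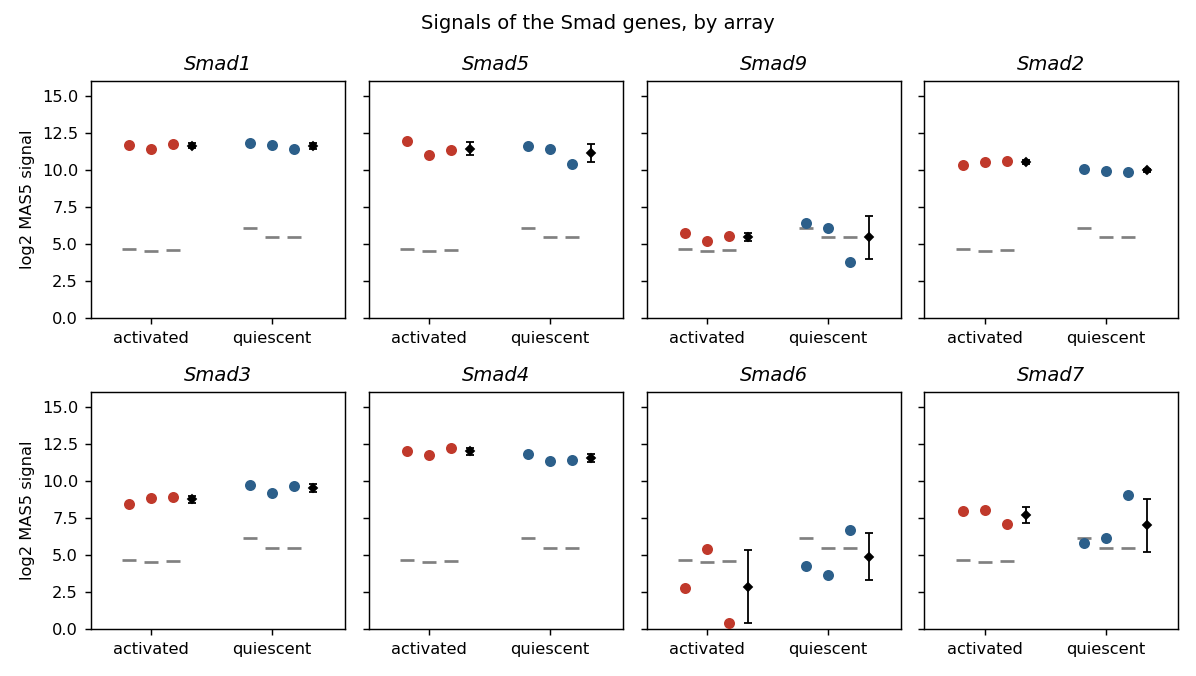
Log2 MAS5 signal of the 8 Smad genes on each array (activated red, quiescent blue); grey dashes mark background and diamonds the group mean ± SD (n = 3). Smad1, Smad5, Smad2, Smad3 and Smad4 lie far above background in both groups, while Smad9 and Smad6 lie near it.

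By limma with the deposited scaling, 0 of 8 tested Smad and Smurf genes were called in either direction, and 0 had an unadjusted p under 0.05. Smad1, which carries BMP signals, read 11.70, 11.44 and 11.76 on the activated arrays and 11.80, 11.70 and 11.42 on the quiescent arrays. The groups overlap closely, and the difference was 0.00 ± 0.25 (adjusted p = 0.99) with a 95% interval from -0.56 to 0.55. A dimmer Smad1 probe set read 7.98, 6.98 and 7.16 against 2.88, 2.52 and 6.63, a difference of 3.36, with quiescent arrays 1 and 2 at background. The mean of the Smad1 probe sets was therefore called higher, at 1.25 (adjusted p = 0.0174). Smad5, the close BMP partner of Smad1, differed by 0.28 ± 0.37 (adjusted p = 0.579), and its 3 probe sets lay between 0.28 and 0.30. Smad9 was dim, at 5.18 to 5.74 on activated and 3.81 to 6.45 on quiescent arrays.

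Smad2, Smad3 and the shared Smad4 were not called. Smad2 read 10.37, 10.57 and 10.62 on the activated arrays and 10.05, 9.96 and 9.88 on the quiescent arrays. The activated arrays all lie higher, but the difference of 0.55 ± 0.28 was not called (adjusted p = 0.147). The further Smad2 probe set overlapped between groups, with a difference of 0.08. Smad3 showed the opposite order, with 8.44, 8.84 and 8.92 against 9.70, 9.16 and 9.63. Its groups do not overlap either, and the difference of -0.76 ± 0.36 was not called (adjusted p = 0.124). The further Smad3 probe sets differed by -0.82 and -1.55 with overlapping arrays, and averaging all 3 gave -1.04 without a call (adjusted p = 0.0641). Smad4, the shared partner, differed by 0.44 ± 0.26 (adjusted p = 0.211) with overlapping arrays. After rescaling on the hybridisation controls Smad2 and Smad4 were called higher, by 1.20 and 1.08, against the shifted median of 0.66, and Smad3 stood at -0.12 (adjusted p = 0.866).

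The inhibitory Smads were variable. Smad7 read 7.98, 8.04 and 7.09 on the activated arrays and 5.82, 6.12 and 9.03 on the quiescent arrays. Quiescent array 3 stands above every activated array and the other quiescent arrays below them, with array 1 at background, so Smad7 was not called (difference 0.71 ± 0.81, adjusted p = 0.519). Without quiescent array 3 the difference was 1.73 and was called (adjusted p = 0.0453). Its further probe set showed the same quiescent array high, at 9.98, with a difference of 0.04. Smad6 was at background on 2 arrays of each group. Smurf1 and Smurf2, ubiquitin ligases that target Smads and receptors, differed by -0.81 ± 0.47 (adjusted p = 0.2) and -0.30 ± 0.28 (adjusted p = 0.423), both with overlapping arrays. For both genes the direction depends on the probe set. Another Smurf1 probe set differed by 0.19 and the other Smurf2 probe sets by 0.25 and 0.28, also with overlap.

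Nbl1, which encodes the BMP antagonist DAN, was the member called higher. It read 8.67, 9.21 and 9.22 on the activated arrays and 7.44, 4.87 and 4.04 on the quiescent arrays. Quiescent arrays 2 and 3 were at background, and quiescent array 1, above background, still lies below every activated array. Nbl1 was at least 7.57-fold higher in activated cells (difference 3.59 ± 0.80, adjusted p = 0.00635). It has a single probe set. The call held under each of the 16 alternatives, with adjusted p from 0.000722 to 0.0294.

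The other antagonists were dim or not called. Nog, which encodes noggin, was at background on all 3 activated arrays, at 2.88 to 4.50, and read 5.32, 6.37 and 5.08 on the quiescent arrays, where only array 2 was above background. Chrd, which encodes chordin, overlapped between groups at 4.80 to 6.01 and 4.38 to 6.09. Grem1, for gremlin, was at background on all 3 quiescent arrays, and Fst, for follistatin, on all 6 arrays. Bambi, a decoy receptor that lacks the kinase, differed by -0.75 ± 0.52 (adjusted p = 0.282), with 6.60 to 7.16 on activated and 7.09 to 7.94 on quiescent arrays. Fstl1, a secreted follistatin relative, read 10.98, 10.76 and 11.03 against 12.11, 12.22 and 10.65. Quiescent array 3 alone lies below the activated arrays, and the difference of -0.74 ± 0.40 was not called (adjusted p = 0.17). Without that array it was -1.24 and was called (adjusted p = 0.00252), and after rescaling on the hybridisation controls it was -0.09 (adjusted p = 0.886). The further Fstl1 probe set overlapped between groups, with a difference of -0.07.

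Among the latent TGF beta binding proteins, Ltbp1 was lower in activated cells. Ltbp1 read 4.75, 4.59 and 2.76 on the activated arrays and 9.27, 8.69 and 8.94 on the quiescent arrays. Activated array 3 was at background and the other activated arrays just above it, while the quiescent arrays lie together well above it. Ltbp1 was at least 19.95-fold lower in activated cells (difference -4.93 ± 0.68, adjusted p = 0.000439). Its further probe sets were dimmer and overlapped between groups, at -1.40 and -0.54. Ltbp4 read 6.73, 7.09 and 7.75 against 7.91, 8.56 and 8.22, without overlap and without a call (difference -1.04 ± 0.49, adjusted p = 0.122).

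Ltbp3 gave different answers by probe set. The brightest, a probe set that can cross-hybridise, read 11.47, 12.40 and 12.28 on the activated arrays and 12.14, 12.22 and 12.42 on the quiescent arrays (difference -0.21 ± 0.29, adjusted p = 0.597). The next read 9.62, 10.01 and 9.55 against 11.08, 11.46 and 10.95. That probe set places every activated array below every quiescent array, and when cross-hybridising probe sets were left out Ltbp3 was called lower by -1.44 (adjusted p = 0.00367). The other 2 Ltbp3 probe sets differed by -1.80 and -1.49.

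**Figure D4:**
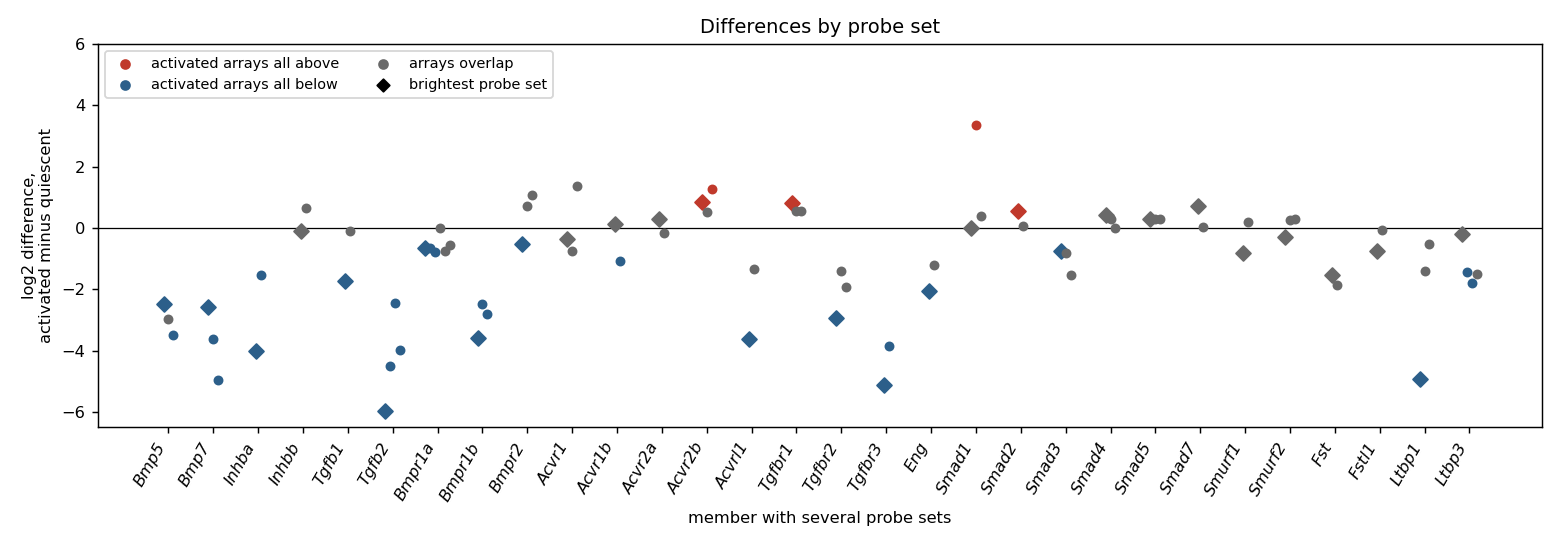
Difference in log2 MAS5 signal, activated minus quiescent, for each probe set of the 30 members with several probe sets; diamonds mark the brightest probe set, blue and red mark probe sets whose activated arrays lie all below or all above the quiescent arrays, and grey marks overlapping arrays. The probe sets of Tgfb2, Bmpr1b, Bmp7 and Tgfbr3 are all lower without overlap, while those of Smad1 and Ltbp3 stand apart from each other.

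Genes of the pathway outside the 44 members were counted by list. Of 11 measured BMP response genes that are not members, 7 were tested, 6 were called lower and 0 higher by limma, with 0 higher at an unadjusted p under 0.05. Of all tested genes, 17.6% were called lower and 17.3% higher. The median difference of these BMP response genes was -2.59 among those tested, against 0.01 for all tested genes. Id2, a helix-loop-helix inhibitor induced by BMPs, read 7.84, 8.06 and 7.81 on the activated arrays and 11.15, 11.81 and 11.89 on the quiescent arrays, a difference of -3.71 ± 0.33 (adjusted p = 5.35e-05). Hey1, a repressor that responds to Notch and BMP signals, was lower by -3.06 ± 0.52 (adjusted p = 0.00133), and the transcription factor gene Gata2 by -2.71 ± 0.52 (adjusted p = 0.00289), a call lost when its probe sets were averaged (adjusted p = 0.0694). The remaining Id genes were looked at after their values were seen. Id3 and Id4 were lower, by -2.59 ± 0.31 (adjusted p = 0.000199) and -1.84 ± 0.37 (adjusted p = 0.00377). Id1 went the other way without a call, with 9.17, 8.52 and 8.52 on activated arrays and 7.12, 7.74 and 8.36 on quiescent arrays (difference 1.00 ± 0.47, adjusted p = 0.125).

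Of 19 measured TGF beta and activin response genes that are not members, 12 were tested, 3 were called higher and 2 lower, with a median difference of 1.05 among those tested. The shares over all tested genes were 17.3% higher and 17.6% lower. After rescaling on the hybridisation controls, 6 of the list were called higher and 2 lower, with its member included. That rescaling called 3059 of all 11575 tested genes higher and 943 lower. Cdkn1c, which encodes the cell cycle inhibitor p57, was at least 4.57-fold higher in activated cells (adjusted p = 0.00842), with 2 quiescent arrays at background. Col1a1, a collagen chain gene, was lower (difference -4.70 ± 0.61, adjusted p = 0.000294). Skil and Tgif1, corepressors that bind Smads, were higher in activated cells, by 2.32 ± 0.43 (adjusted p = 0.00231) and 2.36 ± 0.65 (adjusted p = 0.0168). Tgif1 was no longer called when activated array 1 or quiescent array 1 was left out, with adjusted p of 0.0761 and 0.0569.

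Other regulators inside the cell were called higher in 5 of 19 tested cases and lower in 0, with a median difference of 0.27. In limma 1 was lower at an unadjusted p under 0.05. Over all tested genes, 17.3% were called higher and 17.6% lower. Besides Skil and Tgif1, the corepressor gene Tgif2 read 10.40, 10.96 and 11.35 on the activated arrays and 9.05, 8.66 and 8.81 on the quiescent arrays (difference 2.06 ± 0.34, adjusted p = 0.00125). Of regulators outside the cell, 6 of 10 tested genes were lower and 1 higher, with a median of -1.49. After rescaling on the hybridisation controls, 3 outside regulators were lower and 1 higher, and 7 inside regulators were higher and 0 lower. That setting called 3059 of all 11575 tested genes higher and 943 lower. Htra1, a secreted protease that can act on TGF beta family proteins, read 10.09, 10.95 and 10.77 on the activated arrays and 15.39, 14.63 and 14.44 on the quiescent arrays, or 18.6-fold lower (adjusted p = 3.25e-05). Crim1, which encodes a BMP-binding membrane protein, was lower by -2.92 ± 0.58 (adjusted p = 0.00325), and Itgav, the alpha subunit of integrins that activate latent TGF beta, by -2.16 ± 0.27 (adjusted p = 0.000254). Twsg1, a modulator of BMP and chordin binding, was higher by 1.11 ± 0.33 (adjusted p = 0.0232), a call lost on leaving out any array but quiescent array 3 (adjusted p = 0.0551 to 0.0758).

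Few further ligands and receptors were bright enough to test. Of 4 tested coreceptor and receptor genes outside the members, Neo1 and Rgma, a receptor and a BMP coreceptor that bind each other, were lower by -1.33 ± 0.24 (adjusted p = 0.00217) and -1.26 ± 0.34 (adjusted p = 0.0162). Rescaling on the hybridisation controls ended both calls, with adjusted p of 0.15 and 0.34, and leaving out activated array 2 ended that of Rgma, with adjusted p of 0.0636. Of 13 further ligands measured, 2 were tested, and Nodal was lower by -1.87 ± 0.57 (adjusted p = 0.0269). The Nodal call was lost without activated array 2 or 3, without quiescent array 1 or 2, and after quantile normalization or rescaling on the hybridisation controls (adjusted p = 0.0632 to 0.147).

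**Figure D5:**
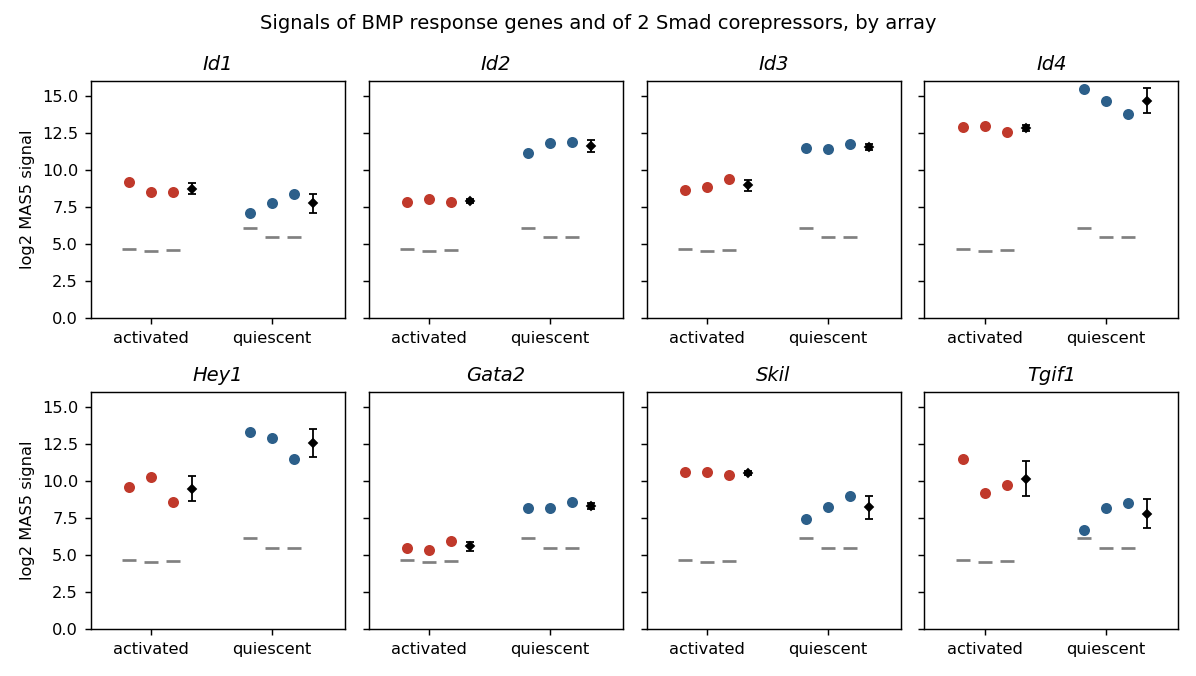
Log2 MAS5 signal of the Id genes, Hey1 and Gata2, which respond to BMP signals, and of the Smad corepressor genes Skil and Tgif1 on each array (activated red, quiescent blue); grey dashes mark background and diamonds the group mean ± SD (n = 3). Id2, Id3, Id4, Hey1 and Gata2 lie lower in activated cells, and Id1, Skil and Tgif1 lie higher.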

How the data were processed

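The RNA of activated and quiescent neural stem cells was hybridised to 6 one-colour arrays, with 3 in each group as the sample titles name them. The authors computed MAS5 signals, per the submitters' processing notes, and deposited them as log2 values. Neither a MAS5 version nor a genome build is given in the sources used here. Each array's signals had been scaled to a linear 2% trimmed mean of 500.0, as the values show, so differences in total RNA per cell are removed, and the number of arrays limits the precision.

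Of 45101 probe sets, 64 controls were left out. Of the rest, 34945 were annotated to 1 gene, 932 to several and 9160 to none, and only the first kind was used, with symbols updated through RefSeq (GRCm38.p6, 99.4% of identifiers found). The brightest probe set per gene was kept, and the 11575 genes reaching the 40th percentile of all probe sets were fitted with lmFit and eBayes with a trend in limma 3.58.1 (R 4.3.3). A lower bound on a fold uses the 95th percentile of 27 bacterial controls. The calculation was tested on simulated data. The members and lists were chosen with earlier results of these data known. Every member is described, and of each other list up to 3 called genes of the commoner direction and 1 of the other are named. Alternatives covered normalization, background, pseudocount, filter, probe set rule, variance model, replicate block and each array left out. Figures were drawn with matplotlib 3.10.9.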

Additional observations from a re-analysis of the deposited data

How the results depend on the processing

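Bmp6, Gdf10, Inhba, Tgfb2, Bmpr1b, Nbl1 and Ltbp1 kept their direction and call under every alternative in which they were tested, and the Eng call was lost under 5, as given above. Members called lower numbered 4 of 25 tested with the filter at the median of all probe sets, which drops 3 called members. That filter called 1789 of all 10257 tested genes lower. After rescaling on the hybridisation controls 6 of 30 members were lower, with 943 of all 11575 tested genes. Without a filter 10 of 44 members were lower, where 13.2% of all 18193 genes were. Members called higher numbered 5 of 30 after rescaling on the hybridisation controls. With the mean of all probe sets they numbered 3 of 28, where Smad1 turned to 1.25 and 1904 of all 10825 tested genes were higher. Rescaling on the hybridisation controls gave 3059 genes higher and 943 lower, against 2004 and 2040 with the deposited scaling, and moved the median of the 30 tested members to 0.06. Leaving out each array gave 1315 to 2440 genes higher, 1540 to 2176 lower and 2855 to 4616 in all, 1 to 2 members higher and 6 to 9 lower, the fewest genes higher without activated array 2. The replicate block gave 3934 genes and the same 7 and 1 members called, and same-numbered arrays deviated together with correlations of only 0.06, -0.02 and 0.03, so the numbers were not taken as pairs. Of the 22 members not called, 10 were called under at least 1 alternative. Members near background are limited by signal, and the cause of lost calls was not tested.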
